A study of Homo sapiens with 12 samples.

Results

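The 271 genes described here carry names made of LINC and a number, the style of name given to long intergenic noncoding RNA genes that have no name of their own. They were taken from 62914 rows of the gene table: 2278 rows had such a symbol, 1184 of these held reads in any library, and 271 held at least 100 counts summed over the 12 libraries. The remaining 913 held fewer. The members were thus chosen by a measured value, their summed counts. All 271 passed the filter on low counts and were tested. The cells were THP-1, a human line grown from a monocytic leukemia, and the libraries formed 4 groups of 3. One group received the cyclic dinucleotide 3'-3'-cGAMP at 1 µg/mL, which binds the innate immune adaptor STING and served as the positive control for antiviral signaling. One group was left untreated, one received chlorquinaldol at 20 µM and one chlorquinaldol at 50 µM, and each treatment lasted 8 h. Chlorquinaldol is a chlorinated hydroxyquinoline antiseptic, a class that binds metal ions. Neither a vehicle nor a harvest time is given for the untreated cells, so solvent and harvest time cannot be told apart from treatment. The sources used here do not say whether replicates were separate cultures, so each p-value measures the spread between these libraries.

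Long intergenic noncoding RNAs are transcribed by RNA polymerase II, are often spliced and polyadenylated, and do not code for a known protein. Many are kept in the nucleus and have low copy numbers, and some act on chromatin or on neighbouring genes, while for most no role has been established. In monocytes and macrophages, inducible transcripts of this class appear beside cytokine and interferon-response genes. RNA was enriched with oligo(dT) before library construction, so transcripts without a poly(A) tail were outside the measurement.

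In GENCODE 29 on GRCh38, 260 of the 271 genes had a position, and 11 had none. The annotation placed 218 of them in the class lincRNA, 18 as processed transcripts and 16 as antisense. It still listed 3 as protein-coding, LINC03040, LINC02693 and LINC02898, under older open reading frame names. Exons of 70 genes overlapped exons of another gene, 55 of them on the opposite strand, and 24 genes had a single exon. Read strand is not given in the sources used here, so reads of opposite-strand overlaps cannot be assigned to one gene. The nearest protein-coding gene in the table lay within 50 kb of 167 genes, and 13 of these pairs were divergent, with start sites at most 2 kb apart on opposite strands. The symbol LINC02256 stood for 2 Ensembl IDs, ENSG00000261064 and ENSG00000289083, which were kept apart.

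Promoters are shown for 6 members described below that moved strongly or lie beside one another or beside a responding gene, and for IFI6, a protein-coding neighbour that moved with one of them. The windows run from 250 bases before to 50 bases after the start that RefSeq gives on GRCh38.p14. LINC02574 and IFI6 lie on the minus strand of chromosome 1 and both rose with cGAMP; LINC01914 rose with all 3 treatments; LINC02280 and LINC02733 rose with 50 µM chlorquinaldol; LINC02723 and LINC02724 fell with it. Capitals mark matches, on either strand, to an interferon-stimulated response element core (TTTC, any 2 bases, TTTC), a metal response core (TGCACNC or TGCGCNC), a hypoxia core (ACGTG), an AP-1 site (TGANTCA) and an antioxidant response core (TGACNNNGC).
LINC02574 (chr1:27662673-27662972, minus strand): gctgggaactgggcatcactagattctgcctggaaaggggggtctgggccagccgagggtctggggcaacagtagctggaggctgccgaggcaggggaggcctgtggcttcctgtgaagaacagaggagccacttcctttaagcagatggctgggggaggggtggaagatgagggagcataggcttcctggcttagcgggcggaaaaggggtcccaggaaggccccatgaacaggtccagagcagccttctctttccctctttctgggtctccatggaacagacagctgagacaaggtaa
IFI6 (chr1:27672143-27672442, minus strand): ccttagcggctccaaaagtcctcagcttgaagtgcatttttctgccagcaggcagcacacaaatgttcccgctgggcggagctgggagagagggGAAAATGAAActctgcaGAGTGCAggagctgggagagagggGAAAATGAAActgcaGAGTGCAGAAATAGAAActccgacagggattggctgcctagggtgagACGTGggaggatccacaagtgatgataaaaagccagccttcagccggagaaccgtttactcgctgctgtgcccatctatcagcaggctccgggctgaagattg
LINC01914 (chr2:41933674-41933973, minus strand): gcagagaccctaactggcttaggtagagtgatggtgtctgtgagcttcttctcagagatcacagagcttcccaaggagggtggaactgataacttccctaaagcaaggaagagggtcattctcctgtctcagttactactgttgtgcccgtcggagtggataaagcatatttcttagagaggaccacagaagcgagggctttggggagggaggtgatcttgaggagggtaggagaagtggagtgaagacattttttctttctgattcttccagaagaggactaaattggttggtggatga
LINC02280 (chr14:104665509-104665808, minus strand): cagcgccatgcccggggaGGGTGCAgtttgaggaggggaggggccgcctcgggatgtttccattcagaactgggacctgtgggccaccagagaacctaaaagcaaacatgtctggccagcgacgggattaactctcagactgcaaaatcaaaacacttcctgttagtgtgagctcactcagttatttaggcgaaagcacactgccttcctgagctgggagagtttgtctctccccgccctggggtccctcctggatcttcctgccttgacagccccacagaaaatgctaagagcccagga
LINC02733 (chr11:62082273-62082572, minus strand): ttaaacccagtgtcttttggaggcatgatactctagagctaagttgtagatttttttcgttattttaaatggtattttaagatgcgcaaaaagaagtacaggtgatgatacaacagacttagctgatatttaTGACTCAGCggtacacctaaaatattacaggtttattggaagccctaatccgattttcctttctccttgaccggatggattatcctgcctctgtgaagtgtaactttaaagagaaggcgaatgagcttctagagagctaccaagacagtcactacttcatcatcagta
LINC02723 (chr11:64395782-64396081, minus strand): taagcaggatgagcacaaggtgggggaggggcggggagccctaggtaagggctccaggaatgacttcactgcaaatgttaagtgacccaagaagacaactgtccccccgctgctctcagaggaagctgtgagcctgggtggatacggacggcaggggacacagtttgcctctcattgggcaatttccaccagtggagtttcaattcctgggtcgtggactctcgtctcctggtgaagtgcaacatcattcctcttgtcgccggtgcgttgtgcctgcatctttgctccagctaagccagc
LINC02724 (chr11:64448807-64449106, plus strand): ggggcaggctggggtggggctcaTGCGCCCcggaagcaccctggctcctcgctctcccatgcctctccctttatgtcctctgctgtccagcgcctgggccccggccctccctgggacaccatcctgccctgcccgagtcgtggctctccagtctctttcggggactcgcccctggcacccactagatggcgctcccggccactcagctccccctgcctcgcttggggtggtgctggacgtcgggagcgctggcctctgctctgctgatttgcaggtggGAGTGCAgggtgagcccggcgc
The IFI6 window held 3 interferon-stimulated response element cores, 2 metal response cores and 1 hypoxia core. None of the 5 motifs occurred in the windows of LINC02574, LINC01914 and LINC02723. The LINC02280 window held 1 metal response core and the LINC02724 window 2, and the LINC02733 window held 1 AP-1 site and 1 antioxidant response core, which overlap in the letters capitalised.

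RefSeq gave 202 promoter windows for 172 of the member symbols. Of these windows, 3.96% held the interferon-stimulated response element core, against 3.57% of all 35116 windows, 22.3% against 29.6% held a metal response core, and 24.3% against 21.4% the hypoxia core. An AP-1 site was found in 9.9% against 7.71%, and the antioxidant response core in 18.8% against 13.3%. Among the 24 windows of members called higher with cGAMP, 1 held the interferon-stimulated response element core. A match describes letters in a window and does not show a bound site.

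Library totals ran from 17620929 to 19222607 counts, and the members took 0.12% to 0.157% of them. Correlations between libraries were 0.9856 to 0.9912 within groups. Of 10 monocytic marker genes, 9 or 10 exceeded 1 CPM (counts scaled to library size) in each group, while the B-cell marker MS4A1 was at 0. Genes known to respond to the 2 agents moved: IFIT1, an interferon-induced RNA-binding protein gene, averaged 578 ± 22.2 CPM with cGAMP and 2.36 ± 0.746 CPM in untreated cells, and the zinc exporter gene SLC30A1 averaged 331 ± 46.9 CPM at 50 µM chlorquinaldol and 41.3 ± 3.47 CPM in untreated cells (SD, n = 3 each). IFIT1 was not particular to cGAMP: it averaged 20.9 ± 3.77 CPM at 20 µM and 47.2 ± 14.6 CPM at 50 µM chlorquinaldol, also above untreated cells.

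Most members were weakly expressed. Summed counts ranged from 102.31 to 28649.7 with a median of 370, and 115 members held 100 to 300 counts, 93 held 300 to 1000 and 63 held more. The 10 members with the most counts took 40% of all member counts. Per length, the median of the members' mean FPKM over 12 libraries was 1.45, against 10.4 for 13023 protein-coding genes over the same floor. Over 10 FPKM were 16 members.

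The floor used the counts of all 4 groups, so it favours genes that are high in any of them. For 25 members the other 3 groups together held under 75 counts, so they reached the floor only through the group in which they were high. LINC02574, LINC02701, LINC02541, LINC00622, LINC02733, LINC02356 and LINC02280 are among the 25. Members whose other 3 groups held from 75 to under 100 counts also needed their highest group, but lie outside the 25. Examples are LINC01914, highest with cGAMP, and LINC02898, highest at 20 µM. For both kinds of member the choice by summed counts favours a difference between their highest group and the others. Just inside the floor lay LINC02280 with 102.31 summed counts, LINC02132 with 102.97 and LINC02614 with 103.2. Just outside it lay LINC01135 with 99.4, LINC02949 with 99.19 and LINC01366 with 99.13. The group with the highest mean level was 50 µM chlorquinaldol for 82 members, cGAMP for 73, untreated for 72 and 20 µM for 44.

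The most abundant member per length was LINC02169, at 71.1 FPKM over all libraries, a gene on chromosome 16 (54245544 to 54270879, minus strand) 12425 bp from the homeobox gene IRX3. It averaged 122 ± 7.08 FPKM with cGAMP, 124 ± 4.61 FPKM in untreated cells, 28.2 ± 6.13 FPKM at 20 µM and 10.7 ± 1.61 FPKM at 50 µM chlorquinaldol (SD, n = 3 each). LINC00623 followed at 71.0 FPKM over all libraries, with group means between 63.4 FPKM in untreated cells and 79.6 FPKM at 50 µM. Next in mean FPKM were LINC03040 at 33.7, LINC00869 at 30.8, LINC01388 at 24.7, LINC00926 at 22.6, LINC01667 at 21.3, LINC00960 at 18.7, LINC02947 at 17.9 and LINC02256 (ENSG00000261064) at 16.6. None of these 10 was called different with cGAMP.

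Chlorquinaldol separated these abundant members. At 50 µM, LINC02169, LINC01388, LINC00926, LINC01667, LINC00960 and LINC02947 fell, while LINC00623, LINC03040, LINC00869 and LINC02256 rose, by edgeR's quasi-likelihood test at an adjusted p below 0.05. LINC03040 had 195, 199 and 156 CPM at 50 µM and 90, 93.6 and 98.4 CPM in untreated cells, so the groups did not overlap (log2 0.96 ± 0.10, adjusted p = 2.25e-07). LINC01667 had 2.97, 3.62 and 4.27 CPM at 50 µM against 13.4, 11.1 and 10.1 CPM in untreated cells (log2 −1.67 ± 0.16, adjusted p = 5.53e-08). The rises of LINC00623, LINC00869 and LINC02256 were under 1.5-fold: LINC02256 lost its call when any of the 3 untreated libraries or 50 µM library 3 was left out and in the 3 FPKM fits (adjusted p = 0.0652 to 0.158), and LINC00869 when untreated library 1 was left out (adjusted p = 0.0501). The LINC00623 call was not kept in every alternative fit either (adjusted p up to 0.0759). Exons of LINC00623, LINC02256 and LINC00960 overlap other genes on the opposite strand.

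The comparison of cGAMP with untreated cells asks which of these transcripts a STING agonist changed. Of the 271 members, 28 rose and 15 fell, which is 15.9%, beside 23.3% of all 16628 genes tested (11.6% higher, 11.8% lower). The median log2 change of the members was 0.002, and that of all genes −0.05. Rises of at least 2-fold numbered 13 (3.71% of all genes passed the same rule) and falls 1 (0.625% of all genes). Leaving out cGAMP library 1 gave 18 members higher, and leaving out untreated library 1 or 2 gave 17 and 16. Among all genes the share of calls that were higher was 49.6%. It was 62.1% when cGAMP library 3 was taken as the base of the scaling, and 40.2% with upper-quartile scaling. Among members the shares were 65.1%, 66.7% and 54.5% in the same order.

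LINC01914, on chromosome 2 (41931599 to 41933723, minus strand), showed the largest rise with cGAMP among the members named by the rule. It had 2.12, 1.87 and 1.74 CPM with cGAMP and 0.0503, 0.0512 and 0.103 CPM in untreated cells, 25.7-fold more (log2 4.68 ± 0.39, adjusted p = 7.4e-08). The untreated libraries held 1, 1 and 2 reads, so the size of this ratio rests on 4 counts. LINC01914 reached the floor only through its cGAMP counts, so the choice of members favours this rise. LINC01914 was also higher than in untreated cells at 20 µM, with 0.565, 0.683 and 0.85 CPM (log2 3.24 ± 0.46, adjusted p = 1.29e-05), and at 50 µM, with 0.812, 0.713 and 0.766 CPM (log2 3.36 ± 0.45, adjusted p = 4.15e-06). LINC02898 lies 1644 bp from it on the same strand and was higher with all 3 treatments as well: it had 0.468, 0.481 and 0.381 CPM with cGAMP, 0, 0.228 and 0.103 CPM in untreated cells, 2.52, 1.54 and 1.55 CPM at 20 µM and 1.16, 1.53 and 0.876 CPM at 50 µM. Between the treatments the order of the 2 genes was not the same, since LINC01914 was highest with cGAMP and LINC02898 at 20 µM. The LINC02898 call with cGAMP (log2 2.05 ± 0.63, adjusted p = 0.0247) was lost without cGAMP library 1 or 2 or untreated library 1 or 3 (adjusted p = 0.0619 to 0.0978), and its FPKM values showed no such difference (log2 0.03 on the log2(FPKM + 1) scale).

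LINC02574 lies on chromosome 1 (27660328 to 27662722, minus strand), 3339 bp from IFI6, an interferon-induced gene whose protein limits apoptosis and viral replication, on the same strand. LINC02574 had 1.07, 1.33 and 1.57 CPM with cGAMP and 0.104, 0.108 and 0.106 CPM in untreated cells (log2 3.62 ± 0.47, adjusted p = 2.11e-05). It reached the floor only through its cGAMP counts, so the choice of members favours this difference. IFI6 had 462, 517 and 592 CPM with cGAMP and 30.9, 31.3 and 33 CPM in untreated cells (log2 4.04 ± 0.19, adjusted p = 2.44e-11). With 50 µM chlorquinaldol both were called higher too, LINC02574 at 0.538, 0.285 and 0.17 CPM (log2 1.57 ± 0.60, adjusted p = 0.0286) and IFI6 at 174, 186 and 99 CPM (log2 2.27 ± 0.18, adjusted p = 6.52e-09). The LINC02574 call at 50 µM rested on few reads and was lost without 50 µM library 1 (log2 1.12, adjusted p = 0.178) or any untreated library (adjusted p = 0.064 to 0.0686), with DESeq2 (0.0658) and in the 3 FPKM fits (0.181 to 0.403). LINC02574 was not called at 20 µM (log2 0.25 ± 0.72, adjusted p = 0.799).

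LINC02904 stands beside LY6E, which encodes an interferon-inducible membrane-anchored protein. It had 3.78, 3.99 and 5.11 CPM with cGAMP and 0.915, 1.49 and 0.899 CPM in untreated cells (log2 1.97 ± 0.23, adjusted p = 4.56e-06), and LY6E had 312, 362 and 393 CPM with cGAMP and 33.6, 36.9 and 32 CPM in untreated cells (log2 3.38 ± 0.17, adjusted p = 8.51e-11). At 50 µM chlorquinaldol LINC02904 had 2.0, 2.13 and 2.08 CPM, above every untreated library (log2 0.92 ± 0.25, adjusted p = 0.00324). Its smaller difference at 20 µM (log2 0.63 ± 0.25, adjusted p = 0.0405) overlapped the untreated range and was lost without 20 µM library 1 or 3 or untreated library 1 or 3 (adjusted p = 0.0783 to 0.141).

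LINC02701, on chromosome 11 (68870664 to 68874542, plus strand), rose with cGAMP, the group through which it reached the floor, and was not called with chlorquinaldol. Its level was 4.09, 3.1 and 4.58 CPM with cGAMP and 0.653, 0.41 and 0.31 CPM in untreated cells (log2 3.08 ± 0.31, adjusted p = 9.44e-07), while the 20 µM and 50 µM libraries lay between 0.11 and 0.359 CPM and the difference from untreated was not called at either dose (adjusted p = 0.158 at 20 µM and 0.141 at 50 µM). MRPL21, a mitochondrial ribosomal protein gene 16734 bp away, was not called with cGAMP (log2 0.20 ± 0.10, adjusted p = 0.174). The difference between 50 µM chlorquinaldol and cGAMP was itself called for LINC02701 (log2 −3.88 ± 0.35, adjusted p = 3.03e-08).

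LINC01126 starts 601 bp from the start of ZFP36L2 on the opposite strand, a divergent pair. The ZFP36L2 protein binds AU-rich elements and promotes mRNA decay. LINC01126 had 1.19, 2.14 and 1.52 CPM with cGAMP and 0.251, 0.205 and 0.828 CPM in untreated cells (log2 1.91 ± 0.49, adjusted p = 0.00858). The untreated libraries spread widely, and the call was lost without untreated library 1 (adjusted p = 0.0524) or 2 (0.0543) and was larger without library 3 (log2 2.79). ZFP36L2 was not called with cGAMP (log2 0.24 ± 0.14, adjusted p = 0.229) and fell with chlorquinaldol, to 68.7, 66.6 and 71.9 CPM at 50 µM against 474, 516 and 568 CPM in untreated cells (log2 −2.91 ± 0.15, adjusted p = 2.82e-11), a comparison in which LINC01126 was not called (log2 0.43 ± 0.57, adjusted p = 0.522).

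LINC03023 moved in opposite directions with the 2 agents. It had 43.5, 40.6 and 45.2 CPM with cGAMP, above the 12.9, 14.8 and 13.8 CPM of untreated cells (log2 1.64 ± 0.14, adjusted p = 1.13e-07), and 0.788, 0.797 and 1.97 CPM at 20 µM and 0.673, 0.493 and 0.383 CPM at 50 µM chlorquinaldol, below them (log2 −3.53 ± 0.21, adjusted p = 6.22e-10, and log2 −4.71 ± 0.24, adjusted p = 3.1e-11). The 4 groups did not overlap. Its further fall between 20 and 50 µM (log2 −1.18 ± 0.37, adjusted p = 0.0168) was lost without 20 µM library 3 (log2 −0.56, adjusted p = 0.26) and without 50 µM library 2 or 3 (adjusted p = 0.0562 and 0.0713), and in the 3 FPKM fits (0.535 to 0.717). LINC02153, 4892 bp away on the same strand, was called in the same directions, at 2.1, 1.9 and 1.86 CPM with cGAMP and 0.584, 0.564 and 0.706 CPM in untreated cells, with 5 counts over the 3 libraries at 20 µM and 1 count over those at 50 µM.

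**Figure D1:**
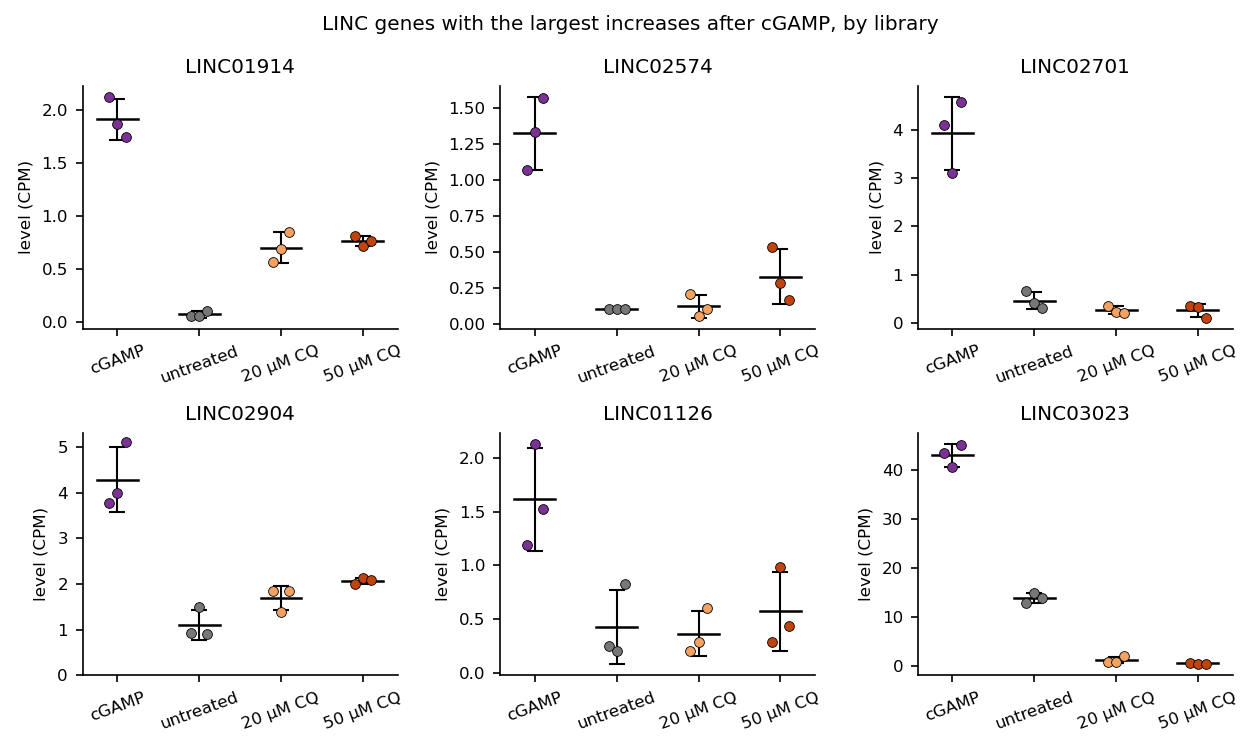
Level in CPM of 6 members called higher with cGAMP, those with the largest log2 changes among called members that averaged at least 1 CPM with cGAMP and whose cGAMP and untreated libraries did not overlap, as points for single libraries with the mean (line) and SD (bar) of each group of 3, in the order cGAMP, untreated, 20 µM and 50 µM chlorquinaldol (CQ). Each cGAMP point lies above all untreated points, and LINC03023 has its lowest values at 50 µM.

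Of the 15 falls with cGAMP, the largest was that of LINC00622 (log2 −2.73 ± 0.78, adjusted p = 0.0171), which rests on few reads. Among members that averaged at least 1 CPM in untreated cells and whose groups did not overlap, LINC00663, LINC00921, LINC02035, LINC01694, LINC03072 and LINC02982 fell most, with log2 changes between −0.99 and −0.84. LINC01694 had 5.83, 5.59 and 4.63 CPM with cGAMP and 11.5, 9.43 and 8.67 CPM in untreated cells (log2 −0.88 ± 0.14, adjusted p = 0.000186), and PCBP3, a poly(C)-binding protein gene 40638 bp from it, fell too (log2 −0.83 ± 0.24, adjusted p = 0.0171). LINC02035 had 3.26, 2.88 and 2.18 CPM with cGAMP and 5.08, 5.02 and 5.54 CPM in untreated cells (log2 −0.91 ± 0.17, adjusted p = 0.000696). LINC03072 had 3.4, 2.94 and 3.94 CPM with cGAMP against 5.75, 6.98 and 5.71 CPM in untreated cells (log2 −0.84 ± 0.16, adjusted p = 0.00082). METTL2B, a tRNA methyltransferase gene near LINC03072, also fell (log2 −0.36 ± 0.11, adjusted p = 0.0315).

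Some of these calls depended on single libraries or on the unit. In the 3 limma fits of FPKM values the calls of LINC01694 (adjusted p = 0.102 to 0.277), LINC00663 (0.0776 to 0.217) and LINC00921 (0.111 to 0.407) were lost, with a log2 change of −0.46 for LINC01694 on the log2(FPKM + 1) scale. The LINC00663 call (log2 −0.99 ± 0.30, adjusted p = 0.0219) was lost without cGAMP library 1 or 2 or untreated library 2 (adjusted p = 0.0526 to 0.109). The LINC00921 call (log2 −0.93 ± 0.26, adjusted p = 0.0162) was lost without cGAMP library 2 or untreated library 1 (0.0835 and 0.0911), and exons of LINC00921 overlap exons of the zinc finger gene ZNF263 on the same strand, so reads of the 2 genes cannot be told apart there. The LINC02982 call (log2 −0.84 ± 0.25, adjusted p = 0.0216) was lost without any one of 5 libraries (0.0628 to 0.0823) and kept without untreated library 2. In LINC00622, 2 counts with cGAMP and 16 in untreated cells gave a ratio of 0.13 (95% exact limits from counting alone, 0.0145 and 0.554), and its call was lost without cGAMP library 1 or 3 or untreated library 2 (adjusted p = 0.0693 to 0.078), while without cGAMP library 2 the fitted log2 change was −5.36.

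Chlorquinaldol at 20 µM was compared with untreated cells to ask which transcripts a lower dose changed. It raised 46 members and lowered 60, 39.1% of the 271, beside 55.1% of all genes tested (27.1% higher, 28.0% lower). At 50 µM, 74 members rose and 82 fell, 57.6%, beside 66.9% of all genes (32.2% higher, 34.7% lower). The median log2 change of the members was 0.02 at 20 µM and −0.02 at 50 µM, and that of all genes −0.0016 and −0.03. At 20 µM 24 members rose and 30 fell by at least 2-fold, a rule that 8.77% and 6.18% of all genes passed. At 50 µM 40 rose and 54 fell by that much, against 14.4% and 12.8% of all genes. Of the members called at 50 µM 47.4% were higher, and 34.8% to 36.7% when FPKM values were fitted with limma. Over all genes called the shares were 48.1%, and 39.4% to 40.8% with FPKM values. Both doses share the untreated libraries, so their calls are given side by side and not as an overlap.

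The share of members called was larger at greater read depth, as it was over all genes. At 50 µM it was 42.6% of members with 100 to 300 summed counts, beside 42.8% of all genes in that band, 64.5% beside 60.1% with 300 to 1000 counts, and 74.6% beside 74.5% with more. At 20 µM the same bands gave 29.6% beside 27.6%, 40.9% beside 44.1% and 54.0% beside 64.6%. With cGAMP they gave 11.3% beside 8.38%, 12.9% beside 16.2% and 28.6% beside 28.6%. Without the 25 members whose other 3 groups held under 75 counts, 14.6% were called with cGAMP, 39.0% at 20 µM and 58.1% at 50 µM. These shares still include members such as LINC01914, whose other groups held from 75 to under 100 counts. The effect of the choice is therefore not fully removed. With cGAMP 6 of those 25 were higher and 1 lower, and of the other 246 members 22 were higher and 14 lower.

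**Figure D2:**
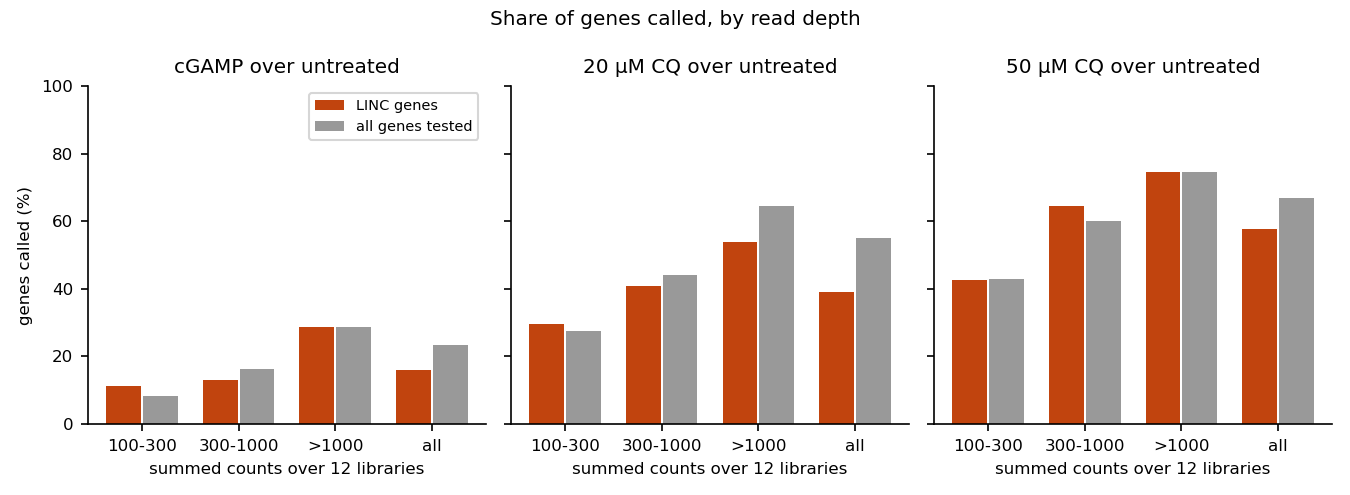
Percent of genes called (adjusted p below 0.05, y axis) for LINC genes and for all genes tested, by summed counts over the 12 libraries (x axis), for cGAMP, 20 µM and 50 µM chlorquinaldol over untreated cells. Bars grow with depth in both sets, and at 50 µM they are 42.6% beside 42.8%, 64.5% beside 60.1% and 74.6% beside 74.5%.

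**Figure D3:**
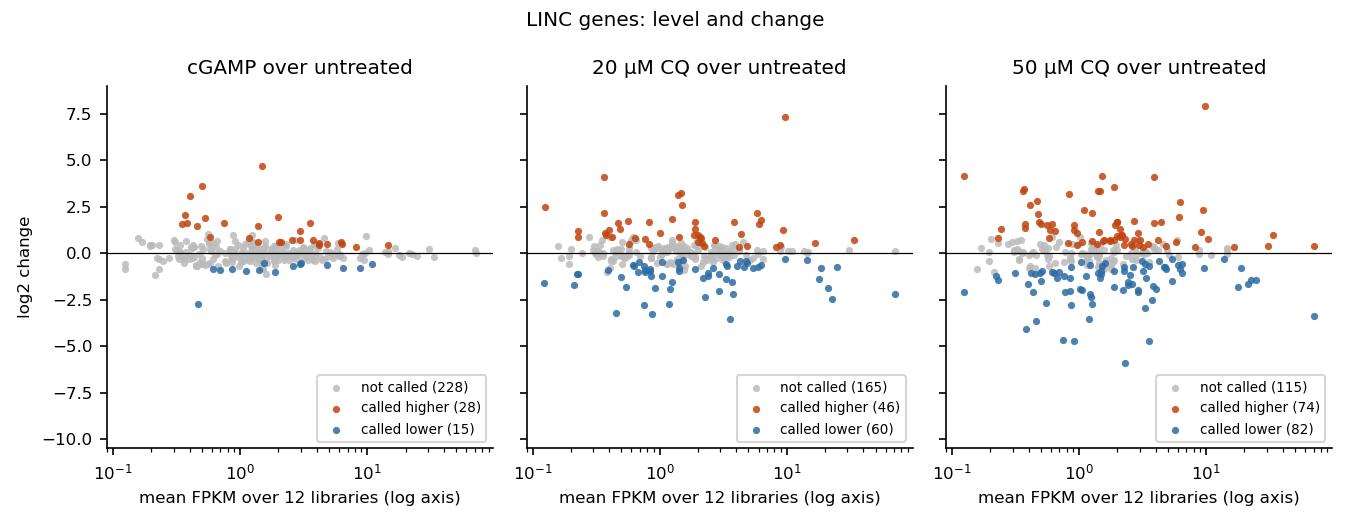
Log2 change (y axis) of each of the 271 LINC genes against its mean FPKM over 12 libraries (x axis, log scale), for cGAMP, 20 µM and 50 µM chlorquinaldol over untreated cells, coloured by call. The counts of members called are in the legends, 28 and 15 with cGAMP, 46 and 60 at 20 µM, and 74 and 82 at 50 µM.

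LINC03047 was nearly absent without the drug and showed the largest rise of the named members at both doses. Its libraries held 0, 1 and 1 reads in untreated cells and 2, 2 and 0 with cGAMP. At 20 µM it had 6.11, 8.03 and 5.4 CPM and at 50 µM 16.5, 7.84 and 5.37 CPM. The ratio of scaled counts over untreated cells was 189 at 20 µM (95% exact limits from counting alone, 52.1 and 1570) and 287 at 50 µM (79.2 and 2380), where 368 and 526 counts stood against 2. Both were called (adjusted p = 1.31e-07 and 8.49e-09). The 3 libraries at 50 µM spread 3-fold and overlapped those at 20 µM, and the step between the doses was not called (adjusted p = 0.115). ODF1, a sperm tail protein gene 12904 bp away, stayed under 1 CPM in every library and was not tested.

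LINC00877 and LINC01283 climbed with dose. LINC00877, on chromosome 3 (72035300 to 72279503, minus strand), had 0.251, 0.307 and 0.31 CPM in untreated cells, 2.31, 1.54 and 1.4 CPM at 20 µM and 5.86, 5.48 and 4.71 CPM at 50 µM, 3 ranges that did not overlap (log2 4.18 ± 0.31, adjusted p = 3.02e-09 at 50 µM; log2 1.61 ± 0.24, adjusted p = 4.91e-05 between the doses). LINC01283, on chromosome X (39401252 to 39434824, minus strand), had 1.46, 1.13 and 1.5 CPM in untreated cells, 4.21, 4.55 and 4.6 CPM at 20 µM and 29, 21.9 and 20.1 CPM at 50 µM (log2 4.11 ± 0.18, adjusted p = 4.6e-12 at 50 µM; log2 2.41 ± 0.15, adjusted p = 8.41e-09 between the doses). Its levels with cGAMP, 1.55, 0.961 and 1.36 CPM, overlapped the untreated ones. No protein-coding gene of the table lay within 50 kb of either, and an exon of LINC00877 overlaps an unnamed gene on the opposite strand.

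LINC02280, whose promoter is printed above, held 4 counts in untreated cells, 24 at 20 µM and 72 at 50 µM, at 1.16, 1.31 and 1.53 CPM in the 50 µM libraries (log2 4.17 ± 0.55, adjusted p = 2.82e-06; log2 5.38 without untreated library 2, which held 3 of the 4 counts). The choice of members favours this rise, since LINC02280 reached the floor only through its 50 µM counts. INF2, a formin gene 24048 bp from LINC02280 that organises actin, rose at 50 µM too, at 572, 543 and 446 CPM with 50 µM and 145, 143 and 154 CPM in untreated cells (log2 1.82 ± 0.11, adjusted p = 1.97e-10). LINC01160 overlaps the span of RAP1A, a small GTPase gene, on the opposite strand. It had 3.69, 3.53 and 1.92 CPM at 50 µM against 0.254, 0.259 and 0.242 CPM in untreated cells (log2 3.54 ± 0.48, adjusted p = 4.2e-06), and RAP1A had 312, 302 and 286 CPM at 50 µM against 120.4, 118 and 136 CPM in untreated cells (log2 1.27 ± 0.09, adjusted p = 1.41e-09). LINC02898 rose with both doses (log2 4.11 ± 0.50, adjusted p = 2.29e-06 at 20 µM and log2 3.46 ± 0.53, adjusted p = 1.8e-05 at 50 µM), by log2 5.02 and 4.37 without untreated library 2. Over the alternative fits its log2 change was as low as 0.54 at 20 µM and 0.44 at 50 µM. Neither call held in every fit (adjusted p up to 0.0543 at 20 µM and 0.0905 at 50 µM). LINC02898 reached the floor only through its 20 µM counts, so the choice of members favours its rise at 20 µM.

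LINC01275, LINC02356 and LINC01257 complete the rises named at 20 µM. LINC01275 had 1.9, 1.42 and 0.80 CPM at 20 µM and 0, 0.256 and 0.207 CPM in untreated cells (log2 3.11 ± 0.60, adjusted p = 0.000282). LINC01257 had 1.07, 1.03 and 1.14 CPM in untreated cells, 4.38, 3.54 and 3.52 CPM at 20 µM and 5.05, 4.84 and 4.73 CPM at 50 µM, with both doses above every untreated library (log2 1.82 ± 0.19, adjusted p = 3.94e-07 at 20 µM). ADGRD1, an adhesion G protein-coupled receptor gene 23542 bp from it on the same strand, rose as well, at 17.7, 15.1 and 14.2 CPM with 20 µM and 4.58, 4.92 and 6.73 CPM in untreated cells (log2 1.53 ± 0.16, adjusted p = 4.24e-07). LINC02356 is divergent from PHETA1, an endosome trafficking gene. LINC02356 reached the floor only through its 20 µM counts, so the choice of members favours its high level there. It had 0.201, 0.307 and 0.259 CPM in untreated cells, 0.976, 1.54 and 1.05 CPM at 20 µM and 0.29, 0.767 and 0.219 CPM at 50 µM, so its highest values were at 20 µM and the 50 µM libraries overlapped the untreated ones, whereas PHETA1 was called higher at both doses (log2 1.73 ± 0.17, adjusted p = 6.17e-08 at 50 µM).

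LINC02723 and LINC02724 lie 53242 bp apart on chromosome 11 (64394342 to 64395831, minus strand and 64449074 to 64451657, plus strand) and fell together. LINC02723 had 2.31, 3.08 and 2.33 CPM in untreated cells, 0.257, 0.569 and 0.65 CPM at 20 µM and 0, 0.0548 and 0.0548 CPM at 50 µM. Its 2 counts at 50 µM stood against 151 in untreated cells, a ratio of 0.0145 (95% exact limits from counting alone, 0.00174 and 0.0532). LINC02724 had 2.66, 2.72 and 3.88 CPM in untreated cells, 0.411, 0.854 and 1.25 CPM at 20 µM and 0, 0.164 and 0.164 CPM at 50 µM (log2 −4.71 ± 0.47, adjusted p = 1.18e-07; log2 −4.11 without 50 µM library 1). RPS6KA4, the gene of the stress-activated kinase MSK2, lies 22127 bp from LINC02723 and fell too, to 28.7, 21.1 and 14.9 CPM at 50 µM against 79.1, 89.9 and 82.8 CPM in untreated cells (log2 −1.96 ± 0.16, adjusted p = 5.97e-09). With cGAMP neither LINC gene was called (log2 0.39 ± 0.27, adjusted p = 0.321 and log2 0.21 ± 0.27, adjusted p = 0.626).

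LINC02169 fell from the top of the level order. It had 49.7, 57.4 and 56.9 CPM in untreated cells, 9.35, 13.3 and 13.7 CPM at 20 µM and 4.93, 5.1 and 6.02 CPM at 50 µM (log2 −3.35 ± 0.14, adjusted p = 2.04e-12 at 50 µM). IRX3, on the same strand, had 99.2, 109 and 99.98 CPM in untreated cells, 27.8, 30.6 and 32.1 CPM at 20 µM and 15, 15.9 and 17.7 CPM at 50 µM (log2 −2.66 ± 0.09, adjusted p = 3.5e-13 at 50 µM). Neither gene's dose groups overlapped. With cGAMP LINC02169 was not called (log2 0.03 ± 0.11, adjusted p = 0.888) and IRX3 was slightly lower (log2 −0.29 ± 0.08, adjusted p = 0.0121).

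LINC00926, on chromosome 15 (57300365 to 57307769, plus strand), did not follow the dose. It had 164, 145 and 142 CPM in untreated cells, 26.5, 21.8 and 34.7 CPM at 20 µM and 51.9, 52.1 and 64.2 CPM at 50 µM. The lowest levels were at 20 µM, and the step between the doses was itself called (log2 1.02 ± 0.13, adjusted p = 1.08e-05), beside the falls from untreated (log2 −2.44 ± 0.13, adjusted p = 2.29e-10 at 20 µM; log2 −1.42 ± 0.12, adjusted p = 1.92e-08 at 50 µM). TCF12, a basic helix-loop-helix transcription factor gene that ends 1084 bp upstream on the same strand, was not called at 20 µM (log2 0.06 ± 0.08, adjusted p = 0.572) and was higher at 50 µM (log2 0.22 ± 0.08, adjusted p = 0.0225). With cGAMP LINC00926 had 144, 144 and 144 CPM and was not called.

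**Figure D4:**
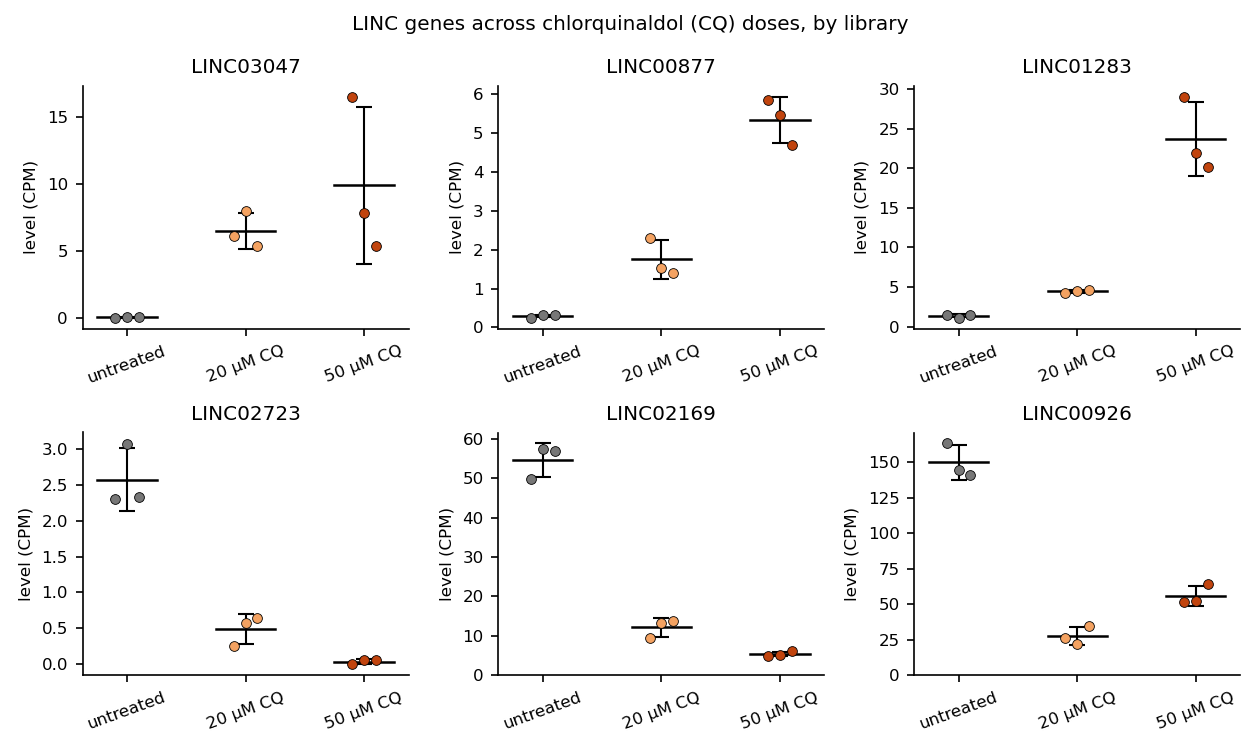
Level in CPM of 6 members in untreated cells and at 20 µM and 50 µM chlorquinaldol (CQ), as points for single libraries with the mean (line) and SD (bar) of each group of 3. LINC03047, LINC00877 and LINC01283 rise, LINC02723 and LINC02169 fall, and LINC00926 is lowest at 20 µM.

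LINC01140, LINC01943 and LINC01624 also fell. LINC01140 had 2.86, 2.97 and 2.69 CPM in untreated cells, 0.536, 0.285 and 0.469 CPM at 20 µM and 0.174, 0.462 and 0.11 CPM at 50 µM (log2 −3.52 ± 0.36, adjusted p = 1.39e-07; log2 −4.21 without 50 µM library 2). LINC01943 had 0.397, 0.398 and 0.40 CPM at 20 µM and 1.49, 1.8 and 2.32 CPM in untreated cells (log2 −2.20 ± 0.30, adjusted p = 1.05e-05), and its exons overlap those of the noncoding gene CYTOR on the opposite strand, so its reads are uncertain. LINC01624 and DLL1, which encodes a Notch ligand, face each other on opposite strands with their ends 2319 bp apart, and an exon of LINC01624 overlaps an unnamed opposite-strand gene. It had 7.18, 6.59 and 5.72 CPM in untreated cells, 1.85, 2.39 and 3.2 CPM at 20 µM and 0.58, 1.3 and 0.712 CPM at 50 µM. DLL1 had 19.6, 18.3 and 18.8 CPM in untreated cells, 53.9, 42.6 and 49.6 CPM at 20 µM and 17.3, 18.8 and 21.7 CPM at 50 µM. At 20 µM the 2 genes were called in opposite directions (log2 −1.39 ± 0.20, adjusted p = 1.69e-05 for LINC01624 and log2 1.37 ± 0.11, adjusted p = 1.68e-08 for DLL1), and between the doses both were lower at 50 µM (log2 −1.53 ± 0.27, adjusted p = 0.000262 and log2 −1.34 ± 0.11, adjusted p = 6.94e-08).

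The 2 doses were also compared directly. Between them 34 members were higher at 50 µM and 40 lower, 27.3% of the 271, beside 38.1% of all genes tested (19.1% higher, 19.0% lower). The count of members lower at 50 µM was 24 without 20 µM library 3. Differences of at least 2-fold numbered 19 in each direction, where 4.56% of all genes were that much higher and 3.34% that much lower. LINC00622 showed the largest rise: it had 1.91, 1.7 and 2.3 CPM at 50 µM and 0.411, 0.228 and 0.30 CPM at 20 µM (log2 2.62 ± 0.38, adjusted p = 3.8e-05). ZNF697, a zinc finger gene 20151 bp from it on the same strand, had 101, 97.3 and 92.4 CPM at 50 µM and 31.7, 17.9 and 13.1 CPM at 20 µM (log2 2.21 ± 0.20, adjusted p = 2.12e-07). LINC02541 had 1.74, 1.48 and 2.03 CPM at 50 µM and 0.308, 0.171 and 0.75 CPM at 20 µM (log2 2.05 ± 0.38, adjusted p = 0.000436; log2 2.84 without 20 µM library 3). LINC01160 rose between the doses as well (log2 1.85 ± 0.40, adjusted p = 0.0014). Neither this call nor that of LINC02541 held in every alternative fit (adjusted p up to 0.0547 for LINC01160 and 0.0683 for LINC02541). LINC00622 and LINC02541 reached the floor only through their 50 µM counts, so the choice of members favours their rises.

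LINC02733 and LINC01857 went against their coding neighbours. LINC02733 reached the floor only through its 50 µM counts, so the choice of members favours its rise. LINC02733 had 1.1, 1.43 and 1.92 CPM at 50 µM and 0.411, 0.517 and 0.388 CPM at 20 µM (log2 1.74 ± 0.38, adjusted p = 0.00171), while INCENP, a gene of the chromosomal passenger complex 41789 bp away, fell (log2 −0.87 ± 0.14, adjusted p = 0.000103). LINC01857 had 2.73, 1.43 and 1.75 CPM at 50 µM and 0.719, 0.683 and 0.45 CPM at 20 µM (log2 1.66 ± 0.31, adjusted p = 0.000434), and METTL21A, a gene for a methyltransferase of HSP70 proteins, fell (log2 −0.54 ± 0.13, adjusted p = 0.00266).

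Among members that averaged at least 1 CPM at 20 µM and whose groups did not overlap, LINC01625, on chromosome 6 (139468995 to 139474596, minus strand), had the largest fall between the doses, with 0.29, 0.439 and 0.164 CPM at 50 µM and 0.668, 1.71 and 1.7 CPM at 20 µM (log2 −2.16 ± 0.44, adjusted p = 0.000918). LINC02723 (log2 −3.51 ± 0.77, adjusted p = 0.00172), LINC03007 (log2 −3.11 ± 0.90, adjusted p = 0.0114; 1 count at 50 µM and 12 at 20 µM) and LINC02724 (log2 −2.84 ± 0.59, adjusted p = 0.00105) fell further at lower levels. Over the alternative fits the falls of LINC02723 and LINC02724 shrank to as little as log2 −0.68 and −0.42. Neither call held in every fit (adjusted p up to 0.0684 and 0.0946). LINC01843 had 0.232, 0.439 and 0.274 CPM at 50 µM and 1.44, 0.797 and 0.90 CPM at 20 µM (log2 −1.71 ± 0.39, adjusted p = 0.00203), and its neighbour JADE2, a chromatin complex scaffold gene, fell as well (log2 −0.83 ± 0.11, adjusted p = 2.37e-05). LINC00663 had 0.348, 0.549 and 0.547 CPM at 50 µM and 1.23, 0.968 and 1.84 CPM at 20 µM (log2 −1.48 ± 0.34, adjusted p = 0.00229). LINC00461, the host of a microRNA of the miR-9 family, had 0.452, 0.974 and 1.09 CPM in untreated cells, 1.75, 2.05 and 2.15 CPM at 20 µM and 1.04, 0.548 and 0.766 CPM at 50 µM, so it was highest at 20 µM (log2 −1.33 ± 0.31, adjusted p = 0.00252). Its neighbour MEF2C, a transcription factor gene, was not called between the doses (log2 −0.10 ± 0.07, adjusted p = 0.288). LINC02356 was lower at 50 µM (log2 −1.45 ± 0.41, adjusted p = 0.0101), a call lost without 20 µM library 2 or 50 µM library 1 or 3 (adjusted p = 0.051 to 0.0598) and larger without 50 µM library 2 (log2 −2.17).

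Set against cGAMP, 50 µM chlorquinaldol had 59 members higher and 79 lower, 50.9%, beside 66.7% of all genes tested (32.0% higher, 34.7% lower). By at least 2-fold 37 were higher and 51 lower, against 14.1% and 13.1% of all genes. LINC03023 had the drug and the agonist farthest apart among the members named with cGAMP (log2 −6.35 ± 0.23, adjusted p = 6.12e-13). LINC01914 was lower at 50 µM than with cGAMP (log2 −1.32 ± 0.26, adjusted p = 0.000249), although both exceeded untreated cells, and so was LINC02574 (log2 −2.05 ± 0.39, adjusted p = 0.000176).

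Over all members, the nearest protein-coding gene within 50 kb was tested for 136. With cGAMP both genes of a pair were called in 7 pairs, all 7 in the same direction: LINC02574 with IFI6, LINC02904 with LY6E, LINC02980 with TRIM38, LINC00205 with POFUT2, LINC01694 with PCBP3, LINC03072 with METTL2B and LINC00921 with ZNF263. Exons of LINC00921 and ZNF263 overlap on the same strand, so their reads cannot be told apart there; among the 126 pairs without an exon overlap both genes were called in 6, all 6 in the same direction. At 50 µM both were called in 65 pairs, 44 of them in the same direction, and at 20 µM in 43 pairs, 29 of them in the same direction. Between the doses 16 of 20 such pairs had the same direction. Across pairs the log2 changes had a Pearson r of 0.51 with cGAMP and 0.32 at 50 µM, and a Spearman rho of 0.28 and 0.27. Pairs share libraries, some share a neighbour, and they are not independent replicates. Pairs of other neighbouring genes were not counted, so whether the agreement is particular to LINC genes was not tested. Of the 13 divergent pairs, both genes were called in 5 at 50 µM, 2 of them in the same direction. The 17 pairs of members less than 100 kb apart held 8 with both called at 50 µM, 7 of them in the same direction. Some of these pairs have a gap of 0 bp, such as LINC01128 and LINC00115 on opposite strands, whose reads may not be separable. LINC01128 also forms a pair with LINC01409, so these pairs are not independent either.

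**Figure D5:**
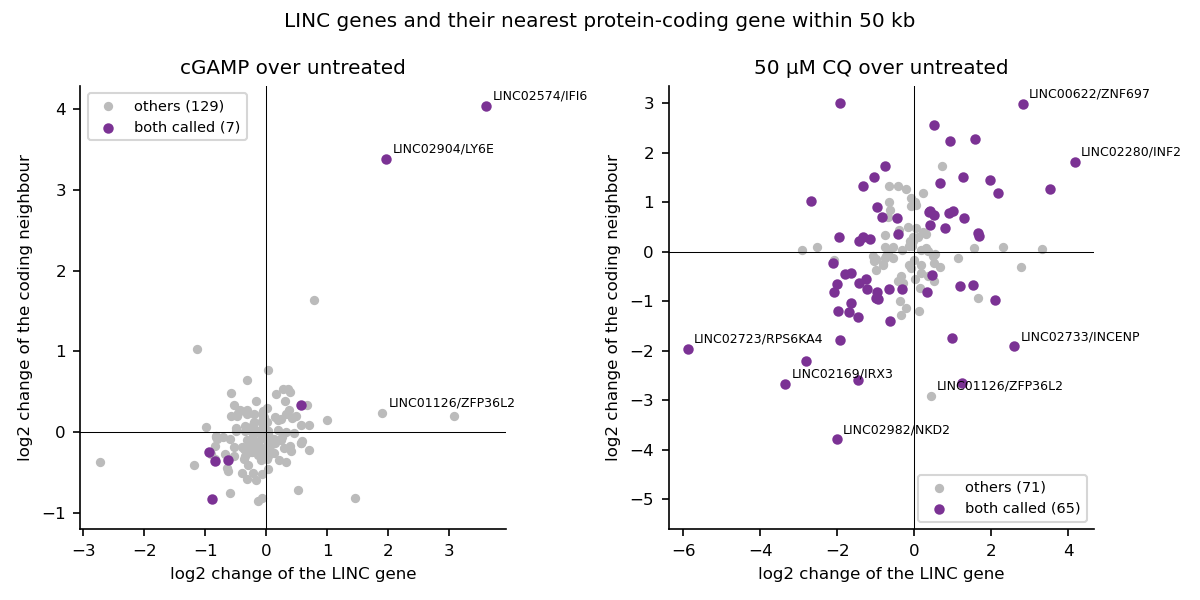
Log2 change of the nearest protein-coding gene within 50 kb (y axis) against that of the LINC gene (x axis) in 136 pairs, for cGAMP and for 50 µM chlorquinaldol (CQ) over untreated cells, with pairs in which both genes were called in purple. All 7 purple pairs with cGAMP lie in the quadrants of equal direction, including LINC00921 and ZNF263, whose exons overlap, and 44 of 65 at 50 µM do.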

How the data were processed

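RNA of 12 THP-1 libraries, 3 in each group, was enriched with oligo(dT) and sequenced on a DNBSEQ instrument, per the labels' protocols. The authors deposited expected counts (estimated reads per gene) and FPKM values (length- and depth-scaled) in matrices of all libraries; RSEM, DESeq2 1.26.0 and GRCh38 are named in the submitters' processing notes. Strand is not given in the sources used here. Expected counts were rounded, rows without an Ensembl ID (326 rows, 0.182% to 0.29% of counts) were left out, and 16628 genes passed edgeR's filterByExpr at a minimum count of 10. One edgeR 4.0.16 quasi-likelihood model (R 4.3.3) of 4 groups with TMM factors gave log2 changes, and p-values were adjusted by Benjamini-Hochberg over all genes tested; called means an adjusted p below 0.05. The script was tested on simulated data. CPM are counts over TMM-scaled library size. Symbols were found for 62517 of 62588 Ensembl IDs. FPKM were used for levels between genes and, with limma 3.58.1, as an alternative, as was DESeq2 1.42.0.

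Named genes were, per comparison, the 6 largest rises and 6 largest falls among called members whose groups did not overlap and whose higher group averaged 1 CPM or more, the 10 highest in mean FPKM, the 3 members on each side of the floor, and neighbours within 50 kb of the first set. LINC02153, LINC03007, the fall of LINC00622 with cGAMP, the further pairs in the count of neighbours and the noncoding genes of the closing section lie outside this rule and were chosen after their values were seen. The members and lists were chosen with earlier results of these data known. Intervals cover counting error only.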

Additional observations from a re-analysis of the deposited data

How the results depend on the processing

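Of 4701 recomputed values of named members over 22 refits, 4521 kept their side of the threshold, 134 lost the call and 46 gained it. No value called in the main fit or the refit changed direction, but changes of direction among uncalled values were not counted. The counts of members called were also recomputed at an adjusted p below 0.01, which made 23 alternatives. The counts of members called moved by over 1.5 times only as follows. With limma on log2(FPKM + 1) over all genes above 0, members higher numbered 13 with cGAMP, 26 at 20 µM, 39 at 50 µM, 18 between the doses and 36 at 50 µM against cGAMP, and members lower numbered 8 with cGAMP and 22 between the doses. With limma on log2(FPKM + 0.1), 19 were higher between the doses. At an adjusted p below 0.01, 15 were higher and 8 lower with cGAMP, and 22 were lower between the doses. With only the 2 groups compared in the fit, 23 were lower between the doses. Leaving out 1 library gave 16 to 31 members higher with cGAMP and 24 to 39 lower between the doses. The cause of these shifts was not tested.

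In the 3 FPKM fits the share of called members that were higher was 34.8% to 36.7% at 50 µM, against 47.4%, and between the doses 27.5% with log2(FPKM + 0.1), 34.3% with log2(FPKM + 1) and 45% without its filter, against 45.9%. Over all genes called the share moved too, to 39.4% to 40.8% at 50 µM, against 48.1%. Between the doses the all-gene shares were 31.9%, 33.3% and 36.8% in the same order of fits, against 50.1%. With log2(FPKM + 0.1) the median of all genes at 50 µM moved to −0.16. The base library of TMM was varied, and neighbour pairs with overlapping exons were left out, after the data were seen: without those pairs both genes were called in 6 pairs with cGAMP, 41 at 20 µM, 65 at 50 µM and 20 between the doses, with 6, 28, 44 and 16 in the same direction. With the replicate number as a block (replicate block), 25 members were higher and 15 lower with cGAMP, 43 and 57 at 20 µM, 70 and 79 at 50 µM, 32 and 38 between the doses, and 59 and 77 at 50 µM against cGAMP. Among named members the block ended the call of LINC02904 at 20 µM (log2 0.64, adjusted p = 0.0539) and that of LINC03040 between the doses (log2 0.27, adjusted p = 0.0655). Deviations of same-numbered libraries correlated at −0.113 to 0.0671 over 18 pairs, so the numbers were not taken to pair the libraries. Counts under about 10 a library limit the members near the floor.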

Other observations

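Other noncoding genes in the same libraries moved as follows. Of 24 SNHG genes, hosts of small nucleolar RNAs, 0 rose and 6 fell with cGAMP by edgeR's quasi-likelihood test, beside 11.6% higher and 11.8% lower of all genes. At 20 µM 2 rose and 9 fell, beside 27.1% and 28.0%, and at 50 µM 5 rose and 6 fell, beside 32.2% and 34.7%. Between the doses 12 were higher and 0 lower at 50 µM, beside 19.1% and 19.0%. Of 30 microRNA host genes named MIR and HG, 2 rose and 2 fell with cGAMP, 12 rose and 5 fell at 20 µM, and 14 rose and 8 fell at 50 µM, against the same shares of all genes. The larger classes were more even. Of 437 genes tested with antisense names (-AS), 35 rose and 28 fell with cGAMP. At 20 µM 83 of them rose and 86 fell, and at 50 µM 111 and 125. Of 183 genes with divergent names (-DT), 9 rose and 7 fell with cGAMP. At 20 µM 30 of these rose and 26 fell, and at 50 µM 41 and 49. LUCAT1, a stress-inducible long noncoding RNA, averaged 4.17 CPM in untreated cells, 25.8 ± 7.78 CPM at 20 µM and 168.0 ± 3.21 CPM at 50 µM (SD, n = 3), a log2 change of 5.33 at 50 µM (adjusted p = 3.5e-13). NEAT1, the scaffold of paraspeckles, rose by 0.66 with cGAMP and by 0.76 at 50 µM on the log2 scale, and was not called at 20 µM (adjusted p = 0.0618). TUG1 was not called in any of the comparisons. DANCR fell with cGAMP, 20 µM and 50 µM chlorquinaldol, with log2 changes of −0.79, −0.85 and −0.88.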
